A study of Homo sapiens with 6 samples.

Results

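The genes described here are 33 cholesterol and lipid synthesis genes out of 63677 genes in the deposited count table. They were chosen by name and function, with earlier results of these data known. They comprise 19 enzymes of sterol synthesis, 5 genes that control the sterol-sensing transcription factors, the sterol carrier gene STARD4, 2 liver X receptor (LXR) genes, 3 LXR target genes that lower the sterol content of the cell by export (ABCA1 and ABCG1) or by less uptake (MYLIP), called the LXR efflux genes below, and 3 fatty acid synthesis genes. A symbol was matched to its Ensembl gene ID through the authors' deposited table. For EBP and NSDHL, which had a further ID listed at 0, the ID with the highest total was taken. All 33 genes passed the filter on low counts and were tested among 15949 genes.

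Cells make cholesterol from acetyl-CoA through the mevalonate pathway, which yields the isoprenoids and then squalene, and through a longer series of steps that turn squalene into cholesterol. When sterol in the endoplasmic reticulum is low, the escort protein SCAP carries the transcription factors SREBP1 and SREBP2 to the Golgi, where they are cut and released to switch on these enzymes, while INSIG proteins hold SCAP back when sterol is plentiful. When oxidised sterols accumulate, the nuclear receptors LXR alpha and LXR beta switch on the exporters ABCA1 and ABCG1 and the ubiquitin ligase MYLIP, which removes lipoprotein receptors from the surface. Activated T lymphocytes are known to raise sterol synthesis and to lower sterol export as they begin to divide.

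RNA was sequenced from RPMI-8402 cells, a line of T-cell acute lymphoblastic leukaemia, all of which stably carried Cas9 and grew in serum free of tetracycline. The DOX group received doxycycline, which induces guide RNAs, and carries the genotype label MYCN_knockout; the DMSO group received the solvent and carries the label control. Both were harvested after 72 hours, with 3 libraries per group, named here by the numbers in the count columns: DOX 12, 24 and 36, and DMSO 11, 23 and 35. The series text names guides against both MYC and MYCN, whereas the treatment text names MYC. The labels name no separate cultures behind the libraries, and do not say whether the line was a single clone. P-values here therefore rest on differences among libraries that may be only technical. No cells given doxycycline without guides were analysed here, so drug and guides were measured together. These are bulk samples, in which fewer cells with a transcript and less of it per cell cannot be told apart.

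Total counts ran from 28602145 to 28911373 in DOX and from 28952786 to 29204148 in DMSO. Of the targets, MYCN was at 46.2 to 53.7 CPM (counts scaled to library size with TMM factors) in DOX against 76.8 to 110 CPM in DMSO, and MYC was at 193 to 206 CPM in DOX against 201 to 279 CPM in DMSO; the log2 fold changes were -0.87 ± 0.13 for MYCN and -0.30 ± 0.12 for MYC (SE). EdgeR's quasi-likelihood test, adjusted by Benjamini-Hochberg, called neither (adjusted p = 0.0726 for MYCN and 0.176 for MYC), whereas DESeq2's Wald test called MYCN (1.08e-05) and not MYC (0.159). Of 13 T-lineage markers, 11 passed the filter, and their summed level was 2454 to 2466 CPM in DOX and 2459 to 2638 CPM in DMSO. CD1A and CD1E did not pass. The sum hides single markers that differed between libraries. CD2 was at 13.5 to 15.5 CPM in DOX and 19.6 CPM in DMSO 11, but at 5.35 and 6.96 CPM in DMSO 23 and DMSO 35. PTCRA, LMO1 and CD5 were lower in every DOX library than in any DMSO library, and no listed marker was higher in that way. The summed B-lineage, myeloid, erythroid and hepatic marker lists reached at most 7.93 CPM in any library, and MS4A1 was at 0 in all 6. The fibroblast list was at 9.18 to 9.77 CPM in DOX and 2.44 to 7.14 CPM in DMSO, and of its 3 genes COL1A1 alone passed the filter. The part of these markers in the results was not tested. DMSO 11 did not sit with its own group: its root mean square log2 distance, over the 9311 genes that averaged 10 CPM or more, was 0.18 to 0.21 to the DOX libraries and 0.41 to 0.43 to DMSO 23 and DMSO 35. The DOX libraries were 0.11 from each other. For MYCN, however, DMSO 11 lay nearer to the other DMSO libraries, at 76.8 CPM. MYC says little on this point. DMSO 11 was the highest of the 6 libraries for MYC, at 279 CPM, and DMSO 23, at 201 CPM, lay within the DOX range. The called genes below are therefore given with and without DMSO 11, a library singled out by these same data. The fit without it sets the 3 DOX libraries against DMSO 23 and DMSO 35 alone, and edgeR called 49.4% of its genes there. Its adjusted p-values describe the libraries left after that choice and are no separate support for a difference.

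Across all 6 libraries, the regulators SREBF1, SREBF2 and INSIG1, the desaturase SCD, the squalene synthase gene FDFT1 and the exporters ABCA1 and ABCG1 were lower in DOX by DESeq2's Wald test. Their log2 fold changes in edgeR's fit lay between -1.61 and -0.29. None of the 33 genes was higher by that test. DESeq2 thus called 7 of 33 genes lower and 0 higher, where it called 9.81% of all genes with an adjusted p, 6.44% lower and 3.37% higher. EdgeR's quasi-likelihood test called 0 of the 33 at an adjusted p of 0.05, where it called 0.0313% of all genes (0.0125% higher, 0.0188% lower), although 9 of the 33 had an unadjusted p under 0.05 (26.0% of all genes). The 3 DOX libraries lay below all 3 DMSO libraries in 10 of the 33 genes (15.6% of all genes) and above them in 0 (14.6%). The authors' deposited table, which comes from DESeq2 as well and is no separate evidence, holds 7 of the 33 genes as lower and 0 as higher at an adjusted p of 0.05. Of its 14237 genes with an adjusted p, 1362 were past that level, 941 lower and 421 higher.

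DMSO 11 decided much of this count. Without it, edgeR called 23 of the 33 genes, 11 higher and 12 lower in DOX, in a fit that called 49.4% of its genes (23.7% higher, 25.7% lower). DESeq2 called 22 without DMSO 11, against a background of 41.5%. When one of the other 5 libraries was left out, edgeR called 0 members and 0 genes in all. DESeq2 then called 0 members without DOX 12 (0.690% of all genes) or DOX 24 (1.23%), SREBF1 alone without DOX 36 (1.01%) or DMSO 35 (1.40%), and SREBF1 and SCD without DMSO 23 (1.32%). These DESeq2 fits were added after the data were seen. With no filter on low counts edgeR called 4 of the 33, against 5.56% of its genes. Under voom, other scalings, a filter of 1 CPM or edgeR's other quasi-likelihood method it was 0 of 33, against 0.0313%, 0.0372% or 0.0376% of genes.

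**Figure D1:**
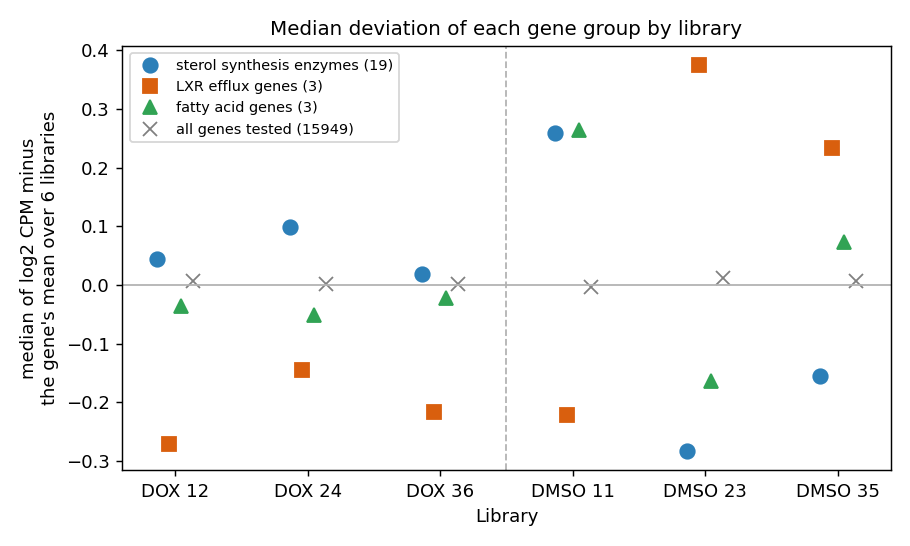
Median deviation of 3 gene groups and of all genes tested in each library, on a log2 scale, with DOX libraries left of the dashed line and DMSO libraries right of it. The LXR efflux genes were at -0.27 to -0.14 in the DOX libraries, at -0.22 in DMSO 11 and at 0.37 and 0.23 in DMSO 23 and DMSO 35, where the sterol enzymes stood at -0.28 and -0.15.

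The promoters of 6 of these genes are shown because these genes stand for the patterns in the data: a sterol exporter, 2 controllers, 2 mevalonate enzymes and a desaturase. Each line gives 300 bases of RefSeq's promoter table (GRCh38.p14, 5′ to 3′ on the strand of the gene), from 250 bases before the annotated start to 50 after it. The table held 28 of the 33 genes, and where a gene had several starts the first one listed was used. Capitals mark matches to 4 motifs on either strand: the sterol regulatory element TCACNCCAC bound by SREBP, the E-box CACGTG bound by MYC family proteins, the CCAAT box (letters CCAAT) bound by NF-Y, a common partner of SREBP, and the LXR element DR4, a direct repeat of AGGTCA with 4 free bases between, with up to 2 mismatches among its 12 fixed letters.
ABCA1, chr9:104928106-104928405, minus strand: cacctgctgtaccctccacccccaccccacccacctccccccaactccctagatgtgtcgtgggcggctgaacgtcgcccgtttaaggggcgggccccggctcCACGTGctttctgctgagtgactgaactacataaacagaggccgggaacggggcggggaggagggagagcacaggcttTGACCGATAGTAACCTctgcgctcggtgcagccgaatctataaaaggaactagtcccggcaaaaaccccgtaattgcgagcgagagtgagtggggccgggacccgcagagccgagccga
SREBF2, chr22:41832855-41833154, plus strand: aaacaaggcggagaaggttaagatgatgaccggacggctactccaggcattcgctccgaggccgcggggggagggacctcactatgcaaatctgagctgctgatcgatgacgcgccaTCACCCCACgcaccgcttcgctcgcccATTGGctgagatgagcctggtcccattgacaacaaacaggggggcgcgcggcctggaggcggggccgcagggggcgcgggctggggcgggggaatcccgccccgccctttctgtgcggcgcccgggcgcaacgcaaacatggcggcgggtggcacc
INSIG1, chr7:155297628-155297927, plus strand: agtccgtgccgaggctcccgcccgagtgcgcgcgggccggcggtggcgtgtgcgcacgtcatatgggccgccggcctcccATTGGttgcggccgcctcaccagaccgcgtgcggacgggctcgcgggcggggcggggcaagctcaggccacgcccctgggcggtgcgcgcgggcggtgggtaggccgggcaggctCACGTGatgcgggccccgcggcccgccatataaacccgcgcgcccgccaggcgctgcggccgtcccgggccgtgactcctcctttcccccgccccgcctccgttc
HMGCS1, chr5:43313363-43313662, minus strand: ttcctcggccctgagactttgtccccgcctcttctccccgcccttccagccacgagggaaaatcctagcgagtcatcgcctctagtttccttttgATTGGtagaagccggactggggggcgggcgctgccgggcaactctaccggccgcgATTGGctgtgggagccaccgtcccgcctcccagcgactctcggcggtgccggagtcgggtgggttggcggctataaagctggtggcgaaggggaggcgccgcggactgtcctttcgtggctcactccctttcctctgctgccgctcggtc
MVD, chr16:88663042-88663341, minus strand: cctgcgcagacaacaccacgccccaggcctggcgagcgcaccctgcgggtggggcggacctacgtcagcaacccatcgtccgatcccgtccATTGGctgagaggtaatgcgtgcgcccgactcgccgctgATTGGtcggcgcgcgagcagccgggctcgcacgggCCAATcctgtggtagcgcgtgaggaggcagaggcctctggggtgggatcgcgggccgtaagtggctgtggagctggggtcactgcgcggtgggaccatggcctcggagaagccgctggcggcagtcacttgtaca
SCD, chr10:100346983-100347282, plus strand: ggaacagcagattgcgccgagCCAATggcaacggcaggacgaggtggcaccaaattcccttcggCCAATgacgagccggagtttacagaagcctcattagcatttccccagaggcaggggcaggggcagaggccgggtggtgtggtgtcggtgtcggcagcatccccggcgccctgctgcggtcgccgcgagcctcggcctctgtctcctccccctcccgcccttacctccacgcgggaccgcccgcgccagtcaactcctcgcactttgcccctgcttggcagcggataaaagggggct

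In the ABCA1 window the capitals at bases 104 to 109, counted from 1 at the 5′ end of the window, are an E-box, and those at 182 to 197 are a DR4 on the opposite strand. SREBF2 held the sterol regulatory element at bases 118 to 126 and a CCAAT box at 145 to 149. INSIG1 held a CCAAT box at 81 to 85 and an E-box at 196 to 201. All capitals in HMGCS1, MVD and SCD are CCAAT boxes, 2, 3 and 2 of them. Across all members with a window, the CCAAT box was in 17 of 28 (60.7%), and in 12 of the 16 sterol enzymes (75%), where 35.7% of all 27305 windows of that length held it. The E-box was in 5 of 28 (17.9%, in LSS, SC5D, INSIG1, SCAP and ABCA1) against 7.43% of all windows, the sterol regulatory element in 1 of 28 (SREBF2) against 1.15%, and the DR4 in 1 of 28 (ABCA1) against 2.42%. Of the 16 sterol enzymes, 2 held the E-box (12.5%), 0 held the sterol regulatory element in these exact letters, and 0 held the DR4. Apart from 2 CCAAT boxes that overlap in NSDHL, no matches overlapped. A match is a description of letters; binding was not measured here.

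In 5 of the 8 early mevalonate enzymes (HMGCS1, MVD, ACAT2, IDI1 and FDPS), DMSO 23 and DMSO 35 both lay below the DOX libraries and DMSO 11. HMGCS1 (ENSG00000112972, chromosome 5), which condenses acetyl-CoA units into HMG-CoA at the head of the pathway, stood at 175, 164 and 166 CPM in DOX 12, 24 and 36, against 179 CPM in DMSO 11, 63.9 CPM in DMSO 23 and 96.0 CPM in DMSO 35. The groups overlapped only through DMSO 11, which was the highest of the 6. Its log2 fold change was 0.58 ± 0.31 with an edgeR adjusted p of 0.265, and 1.07 ± 0.16 without DMSO 11, with an adjusted p of 0.00160. MVD (chromosome 16), the decarboxylase that makes isopentenyl diphosphate, was at 43.7, 42.8 and 45.2 CPM in the DOX libraries, against 50.9 CPM in DMSO 11 and 25.0 and 25.5 CPM in DMSO 23 and DMSO 35. The order of libraries was thus the same as for HMGCS1 in that DMSO 11 was highest and the other DMSO libraries lowest. MVD's log2 fold change was 0.38 ± 0.25 (edgeR adjusted p = 0.355) and 0.80 ± 0.07 without DMSO 11 (adjusted p = 5.84e-08).

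ACAT2, a cytosolic thiolase that feeds HMG-CoA synthesis, IDI1, which isomerises isopentenyl diphosphate, and FDPS, which makes farnesyl diphosphate, shared that order of libraries with smaller differences. ACAT2 ran from 52.6 to 55.8 CPM in DOX, against 40.7 CPM in DMSO 23 and 60.8 CPM in DMSO 11; 52.3% of its exon length overlaps genes on the opposite strand in GENCODE 29, and the strand setting of the counting was not given in the sources used here. IDI1 ran from 86.5 to 94.1 CPM in DOX and from 72.7 to 97.0 CPM in DMSO. FDPS averaged 126 ± 8.29 CPM in DOX and 113 ± 27.7 CPM in DMSO (SD, n = 3 each). Without DMSO 11 their log2 fold changes were 0.34 for ACAT2, 0.26 for IDI1 and 0.37 for FDPS, and edgeR called each of the 3 there (adjusted p = 0.000676 for ACAT2, 0.00311 for IDI1 and 0.000172 for FDPS). The mevalonate kinase MVK was at 13.2 to 14.8 CPM in DOX and averaged 14.1 ± 3.68 CPM in DMSO (SD, n = 3), and the next kinase, PMVK, was at 35.4 to 37.7 CPM in DOX and 36.8 to 42.9 CPM in DMSO. Neither kinase was called with or without DMSO 11.

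GGPS1, which makes geranylgeranyl diphosphate for protein prenylation instead of sterol, showed another order. Its 3 DOX libraries held 87.9, 91.3 and 85.4 CPM, against 91.6, 111 and 106 CPM in DMSO 11, 23 and 35. The groups did not overlap, though DMSO 11 lay next to the highest DOX library. The log2 fold change was -0.22 ± 0.09 (edgeR adjusted p = 0.180; DESeq2 adjusted p = 0.185), and edgeR called GGPS1 lower without DMSO 11 (-0.30 ± 0.06, adjusted p = 0.000654). In GENCODE 29, 37.3% of its exon length overlaps TBCE on the same strand.

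In the branch from squalene to cholesterol, FDFT1 stood apart from its neighbours. FDFT1 (ENSG00000079459, chromosome 8), squalene synthase, which commits farnesyl diphosphate to sterols, was at 518, 563 and 544 CPM in DOX 12, 24 and 36, against 657, 636 and 742 CPM in DMSO 11, 23 and 35. The groups were separate, and DMSO 11 lay among the DMSO values. The log2 fold change was -0.32 ± 0.10, with an adjusted p of 0.110 by edgeR and 0.0302 by DESeq2, and it was -0.35 ± 0.08 without DMSO 11 (edgeR adjusted p = 0.000903). SQLE (chromosome 8), the epoxidase that takes the next step, was at 112, 115 and 106 CPM in the DOX libraries, against 127 CPM in DMSO 11 and 66.4 and 82.1 CPM in DMSO 23 and DMSO 35. Unlike FDFT1, it overlapped through DMSO 11, and its log2 fold change was 0.27 ± 0.21 (edgeR adjusted p = 0.417), or 0.58 ± 0.08 without DMSO 11 (adjusted p = 8.03e-06). Both genes belong to consecutive steps, and no test of the difference between them was run.

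DHCR7 (ENSG00000172893, chromosome 11), the reductase of the last step to cholesterol, varied more among the DMSO libraries than between groups. It was at 70.8, 73.0 and 71.3 CPM in DOX 12, 24 and 36, against 99.2, 38.3 and 52.3 CPM in DMSO 11, 23 and 35. The DOX libraries lay close together, between DMSO 11 and the other DMSO libraries. Its log2 fold change was 0.18 ± 0.29 (edgeR adjusted p = 0.709), 0.66 ± 0.10 without DMSO 11 (adjusted p = 7.17e-05) and -0.08 without DMSO 23. LSS, which closes squalene epoxide into lanosterol, ran from 173 to 179 CPM in DOX and from 135 to 212 CPM in DMSO. MSMO1 and NSDHL, which strip methyl groups from the sterol ring, averaged 43.5 ± 0.747 and 26.4 ± 1.47 CPM in DOX and 42.9 ± 9.58 and 25.3 ± 7.34 CPM in DMSO (SD, n = 3 each). EBP, the isomerase that follows, averaged 93.3 ± 3.53 CPM in DOX and 84.1 ± 12.6 CPM in DMSO. In all 4 of these genes DMSO 11 was the highest library and DMSO 23 and DMSO 35 lay below the other 4. Without DMSO 11, edgeR called LSS (0.35), NSDHL (0.33) and EBP (0.28) higher on the log2 scale, and did not call MSMO1 (0.19, adjusted p = 0.0792).

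HSD17B7, a keto-steroid reductase of the same branch, was at 17.5, 16.9 and 16.9 CPM in DOX 12, 24 and 36 and at 18.5, 21.4 and 20.6 CPM in DMSO 11, 23 and 35. The groups did not overlap, and the log2 fold change of -0.24 ± 0.10 was not called by edgeR (adjusted p = 0.181) or DESeq2 (0.187). It was called without DMSO 11 (-0.30, edgeR adjusted p = 0.00667). Its near copy HSD17B7P2 held 40.5% as many counts, so the split of reads between them is uncertain. SC5D ran from 22.9 to 25.6 CPM in DOX and from 20.5 to 23.2 CPM in DMSO, and TM7SF2 from 18.0 to 18.4 CPM in DOX and from 15.4 to 19.7 CPM in DMSO. CYP51A1, lanosterol demethylase, was at 3.88 to 4.07 CPM in DOX and 3.35 to 5.61 CPM in DMSO; 79.4% of its exon length overlaps other genes on the same strand in GENCODE 29. None of SC5D, TM7SF2 and CYP51A1 was called by edgeR with or without DMSO 11, or by DESeq2.

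**Figure D2:**
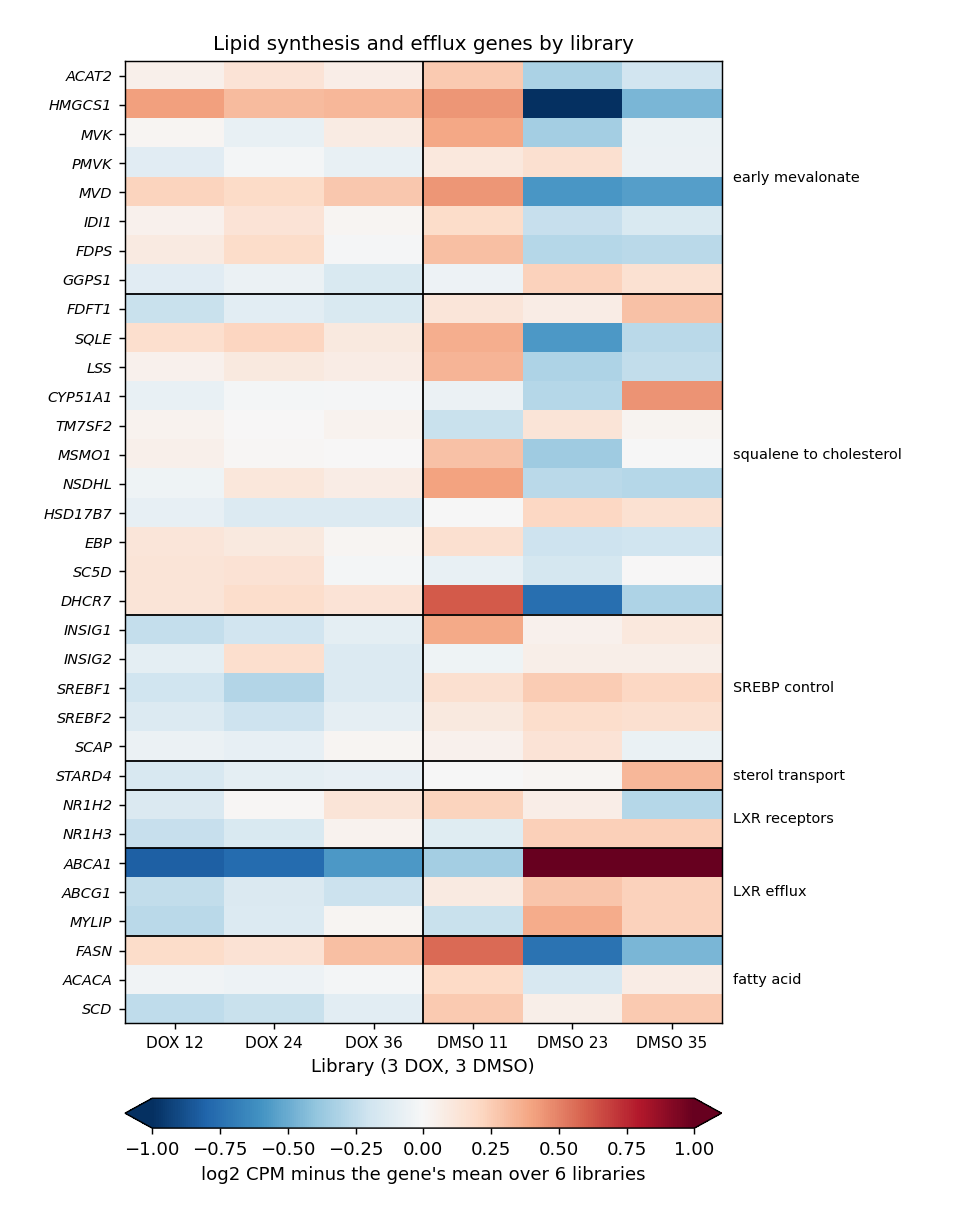
Deviation of log2 CPM from each gene's mean over 6 libraries, for 33 genes (rows, grouped by role) in 3 DOX libraries (left) and 3 DMSO libraries (right), with values beyond 1 in either direction drawn in the end colours. Most sterol enzymes are red in DMSO 11 and blue in DMSO 23 and DMSO 35, while ABCA1, ABCG1 and MYLIP are darkest red in DMSO 23 and DMSO 35.

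Across the 19 sterol enzymes the median log2 fold change was 0.11, against -0.0031 over all genes tested, with 13 above 0 and 6 below. DESeq2 called 0 of them higher and 1 lower, where it called 3.37% of all genes higher and 6.44% lower. EdgeR called 0, where it called 0.0313% of all genes. DMSO 11 was the highest of the 6 libraries in 12 of the 19 (63.2%, against 18.4% of all genes), and DMSO 23 and DMSO 35 both lay below the other 4 libraries in 11 (57.9%, against 27.9%). Relative to DMSO 11, the DOX mean was lower in 16 of the 19 enzymes, with a median of -0.18, and relative to the mean of DMSO 23 and DMSO 35 it was higher in 13, with a median of 0.26; over all genes these medians were -0.0028 and -0.0065. Without DMSO 11 the median fold change was 0.26 and edgeR called 10 of the 19 higher and 3 lower (FDFT1, GGPS1 and HSD17B7), where that fit called 23.7% of all genes higher and 25.7% lower. Without DMSO 23 the median was -0.01. The direction of the group against DMSO thus turned with which DMSO library was used.

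Among the 5 genes that control SREBP, SREBF1, SREBF2 and INSIG1 were lower by DESeq2, and in each of the 3 the DOX libraries lay below DMSO 11 as well as below DMSO 23 and DMSO 35. The median of the 5 was -0.29, with all 5 below 0. SREBF1 (ENSG00000072310, chromosome 17), which encodes SREBP1, the form known for fatty acid genes, was at 309, 289 and 322 CPM in DOX 12, 24 and 36, against 396, 422 and 407 CPM in DMSO 11, 23 and 35. SREBF2 (ENSG00000198911, chromosome 22), which encodes SREBP2, the form known for sterol genes, was at 311, 296 and 320 CPM in the DOX libraries, against 365, 386 and 381 CPM in DMSO 11, 23 and 35. In neither gene did the groups overlap, and in neither did DMSO 11 stand off from DMSO 23 and DMSO 35. The log2 fold changes were -0.41 ± 0.09 for SREBF1 and -0.29 ± 0.08 for SREBF2, and adjusted p was 0.000980 for SREBF1 and 0.0200 for SREBF2 by DESeq2, against 0.0892 and 0.105 by edgeR. Without DMSO 11 they were -0.44 ± 0.07 for SREBF1 and -0.31 ± 0.07 for SREBF2 (edgeR adjusted p = 2.84e-05 and 0.000639). Leaving out any one library kept SREBF1 between -0.45 and -0.37 and SREBF2 between -0.31 and -0.26. A two-sided exact permutation test of log2 CPM gave p = 0.1 for each of the 10 genes with no overlap, the smallest value that 3 against 3 can give. Groups without overlap always give this value, so the test adds no support for these genes.

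INSIG1 (ENSG00000186480, chromosome 7), the sterol-responsive anchor that keeps SCAP in the endoplasmic reticulum, stood at 424, 438 and 466 CPM in DOX 12, 24 and 36, against 648, 516 and 538 CPM in DMSO 11, 23 and 35. No DOX library reached a DMSO library, and DMSO 11 was the highest. Its log2 fold change was -0.36 ± 0.11, called by DESeq2 (adjusted p = 0.0462) and not by edgeR (0.114), and it was -0.25 ± 0.07 without DMSO 11 (edgeR adjusted p = 0.00536). The related anchor INSIG2 was at 21.0 to 25.9 CPM in DOX and 22.4 to 24.1 CPM in DMSO. SCAP was at 199 to 214 CPM in DOX and 201 to 232 CPM in DMSO. Neither INSIG2 (-0.04 ± 0.11) nor SCAP (-0.08 ± 0.09) was called in any of these fits. STARD4, which carries cholesterol between membranes, was at 52.7, 55.1 and 55.6 CPM in DOX and 58.9, 59.7 and 74.3 CPM in DMSO. The groups did not overlap, the log2 fold change was -0.24 ± 0.11 (edgeR adjusted p = 0.196), and it was -0.13 without DMSO 35, the highest library. Without DMSO 11 edgeR called STARD4 lower (-0.30 ± 0.08, adjusted p = 0.00466).

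**Figure D3:**
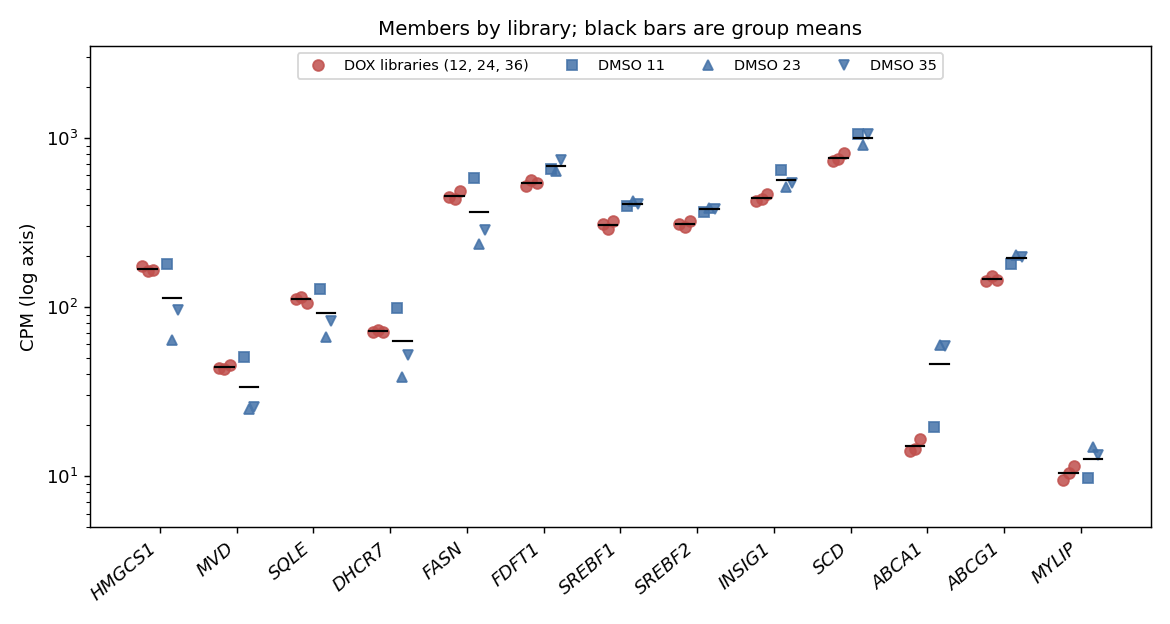
CPM on a log axis in each library for 13 genes, with DOX points left of DMSO points and black bars at the group means. In HMGCS1, MVD, SQLE, DHCR7 and FASN the square of DMSO 11 lies above all DOX points and the other DMSO libraries below them, whereas in FDFT1, SREBF1, SREBF2, INSIG1, SCD, ABCA1 and ABCG1 every DOX point lies below every DMSO point.

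Among the LXR efflux genes, ABCA1 differed most. ABCA1 (ENSG00000165029, chromosome 9), the exporter that loads cholesterol onto apolipoprotein A-I, was at 14.1, 14.5 and 16.6 CPM in DOX 12, 24 and 36, against 19.6, 59.5 and 58.4 CPM in DMSO 11, 23 and 35. Every DOX value was lower than every DMSO value, but DMSO 11 was far nearer to the DOX libraries than to the other DMSO libraries. The log2 fold change was -1.61 ± 0.36, a DOX level of 0.329 times that in DMSO, with an adjusted p of 0.0194 by DESeq2 and 0.0892 by edgeR. Without DMSO 11 it was -1.97 ± 0.08 (edgeR adjusted p = 8.77e-13). The DOX mean minus DMSO 11 was -0.38 on the log2 scale, and the DOX mean minus the mean of DMSO 23 and DMSO 35 was -1.97.

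ABCG1 (ENSG00000160179, chromosome 21), which exports sterol to high-density lipoprotein, was at 142, 152 and 145 CPM in DOX 12, 24 and 36, against 179, 204 and 198 CPM in DMSO 11, 23 and 35. Here DMSO 11 lay nearer the other DMSO libraries, and the groups did not overlap. Its log2 fold change of -0.40 ± 0.09 had an adjusted p of 0.00296 by DESeq2 and 0.0892 by edgeR, and it stayed between -0.46 and -0.37 when any one library was left out, with -0.46 ± 0.06 without DMSO 11 (edgeR adjusted p = 6.02e-06). MYLIP (ENSG00000007944, chromosome 6) was at 9.42, 10.4 and 11.5 CPM in the DOX libraries and at 9.75, 14.8 and 13.4 CPM in DMSO 11, 23 and 35. DMSO 11 lay among the DOX libraries, the log2 fold change was -0.28 ± 0.17, and neither edgeR (adjusted p = 0.314) nor DESeq2 (0.344) called it. Without DMSO 11 edgeR called MYLIP lower (-0.43 ± 0.11, adjusted p = 0.00220), and without DMSO 23 its fold change was -0.15.

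Of the receptors, NR1H2, which encodes LXR beta, was at 38.4 to 46.5 CPM in DOX and 34.7 to 49.5 CPM in DMSO, with a log2 fold change of -0.01 ± 0.14. NR1H3, which encodes LXR alpha, was at 4.54 to 5.46 CPM in DOX and 4.89 to 6.32 CPM in DMSO (-0.24 ± 0.16). For both receptors the groups overlapped, and they were not called over the 6 libraries; without DMSO 11 edgeR called NR1H3 lower (-0.36, adjusted p = 0.0295) and not NR1H2 (0.10, adjusted p = 0.407).

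Set beside the sterol enzymes, the 3 LXR efflux genes had a median log2 fold change of -0.40, where the 19 enzymes had 0.11 and all genes -0.0031. DESeq2 called 2 of the 3 lower, and 1 lower and 0 higher of the 19, where it called 6.44% of all genes lower and 3.37% higher. By library, the median deviations of the enzymes were 0.04, 0.10 and 0.02 in DOX 12, 24 and 36, 0.26 in DMSO 11, and -0.28 and -0.15 in DMSO 23 and DMSO 35. The efflux genes stood at -0.27, -0.14 and -0.22 in DOX, -0.22 in DMSO 11, and 0.37 and 0.23 in DMSO 23 and DMSO 35. The signs were thus opposite in all 6 libraries, but these are not 6 separate observations. Each gene was set against its own mean over the 6, so values on one side of it in DMSO 23 and DMSO 35 push the other libraries to the other side. DMSO 23 and DMSO 35 lay above the other 4 libraries in all 3 efflux genes, as in 29.5% of all genes, and in 2 of the 19 enzymes. The DOX mean minus DMSO 11 had a median of -0.18 over the enzymes and -0.29 over the efflux genes, and the DOX mean minus the mean of DMSO 23 and DMSO 35 had medians of 0.26 and -0.46. The opposite signs of synthesis and efflux thus appeared against DMSO 23 and DMSO 35 and not against DMSO 11; no test of the difference between the gene groups was made.

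**Figure D4:**
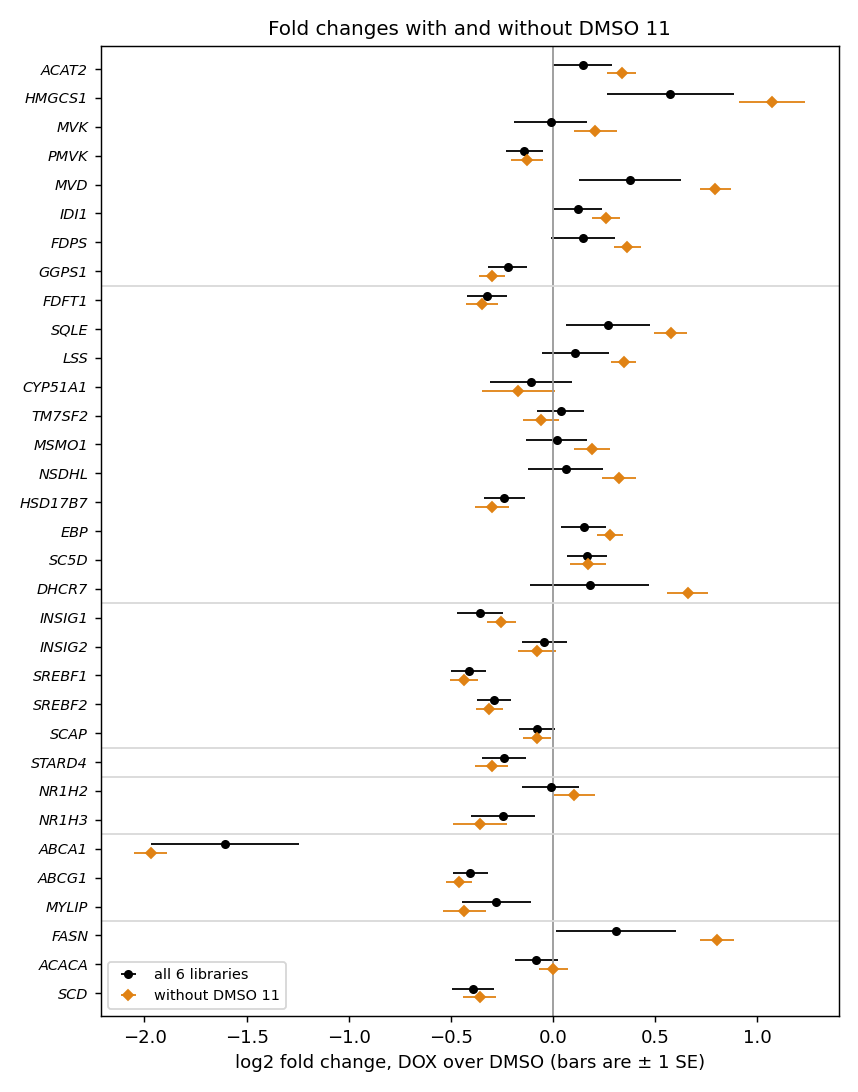
Log2 fold change of DOX over DMSO with ± 1 SE for 33 genes, in roles from top to bottom, over 6 libraries (black circles) and without DMSO 11 (orange diamonds). Diamonds lie further right than circles for most sterol enzymes and for FASN (0.80 against 0.31) and further left for ABCA1 (-1.97 against -1.61), while SREBF1, SREBF2 and SCD hardly move.

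The fatty acid genes differed among themselves. SCD (ENSG00000099194, chromosome 10), the desaturase that makes monounsaturated fatty acids, was at 733, 749 and 812 CPM in DOX 12, 24 and 36, against 1050, 909 and 1051 CPM in DMSO 11, 23 and 35. The groups did not overlap, and the log2 fold change was -0.39 ± 0.10, with an adjusted p of 0.0111 by DESeq2 and 0.0984 by edgeR; it stayed between -0.46 and -0.36 when any one library was left out, with -0.36 ± 0.08 without DMSO 11 (edgeR adjusted p = 0.000894). FASN (ENSG00000169710, chromosome 17), the fatty acid synthase, was at 446, 434 and 483 CPM in the DOX libraries, against 580, 235 and 285 CPM in DMSO 11, 23 and 35. It overlapped through DMSO 11, which was the highest library as in 12 of the 19 sterol enzymes, with a log2 fold change of 0.31 ± 0.29 (edgeR adjusted p = 0.511), 0.80 ± 0.08 without DMSO 11 (adjusted p = 1.89e-07) and 0.07 without DMSO 23. ACACA, the carboxylase that supplies malonyl-CoA, was at 214 to 218 CPM in DOX and 198 to 255 CPM in DMSO (-0.08 ± 0.10). The median over the 3 genes was -0.08.

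To compare levels between genes, mean CPM were divided by the merged exon length in GENCODE 29, which held 32 of the 33 gene IDs (not that of ACACA). On this scale of CPM per kilobase, SCD was highest, at 143 in DOX and 187 in DMSO, followed by INSIG1 (121 in DOX, 155 in DMSO) and FDFT1 (104 in DOX, 130 in DMSO). FASN was at 48.5 in DOX and 39.2 in DMSO, SREBF1 at 38.2 in DOX and 50.9 in DMSO, and SREBF2 at 40.9 in DOX and 49.9 in DMSO. ABCG1 was at 23.9 in DOX and 31.6 in DMSO, well over ABCA1 at 1.33 in DOX and 4.04 in DMSO. The LXR beta gene NR1H2 was at 11.3 in DOX and 11.4 in DMSO, and the LXR alpha gene NR1H3 was at 1.09 in DOX and 1.29 in DMSO. These levels rest on an annotation of another build than the authors' and carry no test.

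Other lipid genes, listed by textbook function with earlier results of these data known, give the surroundings of these 33. Of 103 such genes 97 were tested, edgeR called 0, and DESeq2 called 8 higher and 8 lower of 96 with an adjusted p, beside its 9.81% of all genes. Without DMSO 11 edgeR called 63 of the 97, 38 higher and 25 lower, in the fit that called 49.4% of all its genes. In fatty acid synthesis and modification DESeq2 called 2 of 26 higher and 5 lower, beside 3.37% of all genes higher and 6.44% lower. FADS2, the delta-6 desaturase, was at 1023, 1030 and 1165 CPM in DOX 12, 24 and 36, against 1481, 1409 and 1593 CPM in DMSO 11, 23 and 35, a log2 fold change of -0.48 ± 0.10 (DESeq2 adjusted p = 0.000966) with no overlap. Its neighbour on chromosome 11, the delta-5 desaturase FADS1, was at 473, 488 and 508 CPM in DOX, against 579 CPM in DMSO 11 and 1044 and 987 CPM in DMSO 23 and DMSO 35 (-0.83 ± 0.20, DESeq2 adjusted p = 0.00296). FADS3, of the same gene cluster, was higher in DOX, at 8.30 to 9.98 CPM in DOX against 4.43 to 5.86 CPM in DMSO (0.77 ± 0.15, DESeq2 adjusted p = 0.00166). Without DMSO 11 the fold changes were -0.49 for FADS2, -1.05 for FADS1 and 0.82 for FADS3, each called by edgeR. The other 4 called genes of this list are named after their values were seen: ACSL3 (-0.50 ± 0.14), ACSL6 (-0.93 ± 0.24) and ACSL1 (0.87 ± 0.22), which attach coenzyme A to fatty acids, and the elongase ELOVL6 (-0.35 ± 0.09).

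Among genes of SREBP processing and sterol sensing, DESeq2 called 1 of 10 higher and 2 lower, beside 3.37% of all genes higher and 6.44% lower. The same shares stand beside the counts of the further lists in this paragraph, and such small lists carry no test. MBTPS2, the site-2 protease that releases SREBP, was at 30.2, 30.7 and 31.7 CPM in DOX 12, 24 and 36, against 36.7, 63.0 and 64.6 CPM in DMSO 11, 23 and 35. DMSO 11 again lay next to the DOX libraries, and the log2 fold change was -0.83 ± 0.20 (DESeq2 adjusted p = 0.00363, edgeR adjusted p = 0.0908), or -1.05 ± 0.07 without DMSO 11 (edgeR adjusted p = 6.09e-10). The other 2, named after their values were seen, were ERLIN2 (-0.38 ± 0.10), which takes part in the breakdown of sterol-regulated membrane proteins, and the vesicle coat gene SEC24D (0.60 ± 0.16). Among sterol uptake, transport and storage genes it called 2 of 17 higher and 1 lower. The lipid droplet coat gene PLIN2 was lower at 48.9 to 55.0 CPM in DOX against 61.2 to 82.8 CPM in DMSO (-0.51 ± 0.13, DESeq2 adjusted p = 0.0134), and the caveolar coat gene CAV1 was higher at 4.10 to 4.19 CPM in DOX against 1.99 to 2.91 CPM in DMSO (0.78 ± 0.18, adjusted p = 0.0140). NPC2, which carries cholesterol inside the lysosome, was higher too (0.52 ± 0.15, DESeq2 adjusted p = 0.0273) and is named after its value was seen. Among genes listed as LXR partners or further LXR targets DESeq2 called 2 of 10 higher and 0 lower. One was ABCA7, at 39.4 to 41.4 CPM in DOX against 25.6 to 31.1 CPM in DMSO (0.49 ± 0.10, DESeq2 adjusted p = 0.00341). ABCA7 is a transporter related to ABCA1, and whether LXR controls it was not tested, so it is not counted here as an LXR target. The other, RXRA, encodes the partner with which LXR binds DNA, and is named here after its value was seen (0.60 ± 0.16, DESeq2 adjusted p = 0.0192). Without DMSO 11 the fold changes were -0.64 for PLIN2, 0.75 for CAV1, 0.52 for ABCA7 and 0.80 for RXRA, and 0.69 for NPC2, -0.46 for ERLIN2 and 0.83 for SEC24D, each called by edgeR, as were ACSL3 (-0.65), ACSL6 (-1.19), ACSL1 (0.70) and ELOVL6 (-0.40).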

How the data were processed

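Per the labels' protocols, total RNA went into strand-specific libraries read as paired ends. The authors deposited raw read counts per Ensembl gene. They also deposited a table that gives, per the file headers, a mean normalised signal, a log2 fold change, its standard error and a test score, and p-values; its sign is DOX over DMSO. Per the submitters' processing notes, the tools and build were STAR 2.5.2a, featureCounts, DESeq2 1.12.4 and hg19. Annotation and strand setting are not given in the sources used here. The 92 spike-in rows held 0 counts and were left out, and 0 columns of per-library values were unused.

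The count columns name the group but no replicate number of the labels. Every pair of libraries differed beyond sampling noise (mean chi-square per gene at least 4.56). EdgeR 4.0.16 under R 4.3.3 served for the filter (filterByExpr), TMM scaling and the robust quasi-likelihood F test with group as the single term, with Benjamini-Hochberg adjustment over 15949 genes at 0.05. Fold changes are edgeR's unless another fit is named, and SE is the fold change divided by the square root of F. The prior count in log2 CPM was 2. Alternatives were limma 3.58.1 with voom, DESeq2 1.42.0, other scalings and filters, and each library left out. The members and gene lists were chosen with earlier results of these data known. Named in full were the LXR efflux genes, SREBF1, SREBF2, INSIG1, members called by edgeR or DESeq2 or without overlap, and of the wider list up to 4 genes per direction called by DESeq2, smallest edgeR p first; other values named were chosen after they were seen. Figures were drawn with matplotlib 3.10.9. With 3 libraries per group, precision is set by their spread.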

Additional observations from a re-analysis of the deposited data

How the results depend on the processing

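Calls depended on the test, the filter and single libraries. Over all genes edgeR called 5, DESeq2 1383, and edgeR with no filter on low counts 1761; with one library left out edgeR called 0 to 8109, and DESeq2, added after the data were seen, 95 without DOX 12, 166 without DOX 24, 139 without DOX 36, 190 without DMSO 23, 188 without DMSO 35 and 6806 without DMSO 11. Among the 33 genes the counts were 0 by edgeR, 7 by DESeq2 and 4 with no filter (INSIG1, SREBF1, ABCG1 and SCD), and 0 to 23 by edgeR and 0 to 22 by DESeq2 (2 without DMSO 23) with one library left out. In the wider lipid list they were 0, 16 and 17, and 0 to 63 by edgeR with one library left out; DESeq2 then gave 0 to 56. All upper ends came without DMSO 11. The other scalings, voom, a filter of 1 CPM in 3 libraries and edgeR's other quasi-likelihood method called 5 or 6 genes and 0 members. With one library left out of edgeR, the group medians ran from -0.01 to 0.26 for the sterol enzymes and from -0.46 to -0.37 for the efflux genes. For the fatty acid genes they ran from -0.18 to 0.0029. All shifts were below the pooled SD between libraries (0.20, 0.22 and 0.15 for these groups). That SD is itself widened by DMSO 11, so leaving out one library could hardly exceed it, and no stability follows. Medians of the added DESeq2 fits were not compared. None of the 7 members that DESeq2 called over the 6 libraries changed direction. In each of them every DOX library lay below every DMSO library, so leaving one out could not have reversed the direction. Genes uncalled over the 6 libraries did, among them LSS, NSDHL and DHCR7, which edgeR called higher without DMSO 11 and which were below 0 without DMSO 23 (-0.01, -0.05 and -0.08). MVK was at 0.02 and NR1H2 at 0.0011 under voom, and both at 0.02 under upper-quartile factors. With one library left out the ranges crossed 0 for MVK (-0.17 to 0.21), LSS (-0.01 to 0.35), CYP51A1 (-0.26 to 0.13), TM7SF2 (-0.06 to 0.11), MSMO1 (-0.14 to 0.19), NSDHL (-0.06 to 0.33), DHCR7 (-0.08 to 0.66), INSIG2 (-0.14 to 0.01), NR1H2 (-0.15 to 0.10) and ACACA (-0.18 to 0.0029). The cause was not tested. No paired analysis was possible because the count columns carry none of the labels' replicate numbers.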

Other observations

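In glycerolipid and phospholipid synthesis, DESeq2 called 1 of 22 tested genes higher and 0 lower, where it called 3.37% of all genes higher and 6.44% lower. That gene was DGAT1, which makes triglyceride, at 55.1, 48.9 and 52.6 CPM in DOX 12, 24 and 36, against 42.5, 34.9 and 32.9 CPM in DMSO 11, 23 and 35, a log2 fold change of 0.50 ± 0.11 (DESeq2 adjusted p = 0.00865, edgeR adjusted p = 0.0892) with no overlap between groups; without DMSO 11 it was 0.62 (edgeR adjusted p = 1.54e-06). The median of the 22 genes was 0.05. In isoprenoid synthesis and protein prenylation, 0 of 11 tested genes were called by edgeR or DESeq2, with 1 at an unadjusted edgeR p under 0.05; their median was -0.19, with 9 of 11 below 0, against -0.0031 over all genes tested. Without DMSO 11 this median was -0.16 and edgeR called 2 of the 11 higher and 5 lower, in a fit that called 49.4% of its genes.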
